A study of Homo sapiens with 6 samples.

Results

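The 200 genes described here were those with the lowest share of newly made reads among the abundant mRNAs of untreated MOLM-13 cells. MOLM-13 is an established human acute myeloid leukaemia cell line. Cells received DMSO as vehicle or 10 µM C646, an inhibitor of the acetyltransferases CBP and p300, and were collected after 2 h in 3 replicates per group. 4-thiouridine (4sU, 100 µM) was present in both groups for the final 1 h, and the RNA was analysed by SLAM-seq with sequencing from the 3′ end. The label of each library gives a replicate number and does not say whether the replicates were separate cultures, so that the p-values below measure the spread between these libraries. For each gene, the reads and the T > C reads (reads in which at least one T was read as C) of all its 3′ UTR entries in the 3 DMSO libraries were added up. Of 25420 genes, 1470 had at least 3000 reads, and the 200 of these with the lowest percentage of T > C reads were taken. The genes were thus chosen by their measured T > C share in DMSO, which is given below as a description, without a test.

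4sU is a uridine analogue that cells incorporate into the RNA they are making. After alkylation it is read as C, so that a T > C read usually comes from a transcript made during labelling. The share of such reads in a gene's reads is low where an mRNA is long-lived and is replaced slowly, as is known for the mRNAs of ribosomal proteins and of metabolic enzymes, and high for the mRNAs of many regulators, which are made and degraded quickly. Sequencing errors also give T > C reads.

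The libraries held between 7252597 and 10225448 reads on 3′ UTRs. The 10 myeloid marker genes examined were all detected, with 42302 to 56744 reads per library in sum. Markers of T cells, B cells, erythroid cells, epithelial cells and fibroblasts summed to at most 68 reads per library and cell type. The 200 genes held 22.2% of all reads on 3′ UTRs in DMSO but 6.53% of the T > C reads. In C646, they held 20.3% of the reads and 8.10% of the T > C reads.

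A pair of short stretches of sequence is shown from these genes. The first is the end of the 3′ UTR entry, as the libraries were sequenced from the 3′ end. Where within an entry the reads lie was not examined, and the TPT1 entry is 4005 bases long. For 7 of the 10 genes with the lowest shares a polyadenylation signal AATAAA lay within the last 50 bases of the 3′ UTR entry with the most reads (not for RN7SK, RPS3 and the MIR6805 entry). The 30 bases around it are given below (GRCh38, 5′ to 3′ in the sense of the mRNA), with T in capitals, since a T is the only place where a conversion can be seen. TPT1, HSPB1 and FTL follow, chosen after their values were seen, as the gene with the most reads and the largest rises described below, and then 4 short-lived regulators for contrast.
NDUFA11, chr19:5894680-5894709, minus strand: aaTgcgTccagaaaTaaaTTcTgTgTcTgT
SSR4, chrX:153798455-153798484, plus strand: cTTgcTTccTTcaaTaaacaTcacaggacc
RPL36, chr19:5691634-5691663, plus strand: cccTcTcccTgaaaTaaagaacagcTTgac
PSAP, chr10:71816301-71816330, minus strand: cTgTgaTTTaacaaTaaaaTTcTgTTagcc
PRDX2, chr19:12796827-12796856, minus strand: cTagaggTaaccaaTaaagTaTTagggaaa
APOC1, chr19:44919315-44919344, plus strand: ccaggTgccaccaaTaaaaaTccTacagaa
TYROBP, chr19:35904406-35904435, minus strand: aTacTcTccTaaaaTaaacaTgaagcacaa
TPT1, chr13:45333488-45333517, minus strand: TgcaagacgagcaaTaaaTcTcaaccaacT
HSPB1, chr7:76304259-76304288, plus strand: cTgTTTTTcTcaaaTaaagTTcaaagcaac
FTL, chr19:48966849-48966878, plus strand: ggaccaaaTggaaaTaaagcTTTTTgaTgc
MYB, chr6:135219134-135219163, plus strand: gccTTgTagcaaaaTaaagaTgTgcccTTa
ZFP36L2, chr2:43222410-43222439, minus strand: TagTTTTcccccaaTaaaaTTTTTgggaaa
CCND3, chr6:41934941-41934970, minus strand: agaTgaTTgTgaaaTaaaacTggcTTTggc
CDKN1A, chr6:36687297-36687326, plus strand: cagcaggTgcTcaaTaaaTgaTTcTTagTg
The window of APOC1 holds 4 T and that of PSAP 11, and those of the 4 regulators hold 8 to 11. The signal itself did not set the 200 genes apart, as 69.5% of them and 68.0% of the other 1270 genes held AATAAA in those last 50 bases.

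The second stretch is the annotated start of the transcript, which the reads did not measure and which is shown as a feature of the ribosomal protein genes. Ribosomal protein mRNAs are known to begin with a C and a run of pyrimidines, the 5′ terminal oligopyrimidine motif. The first 20 bases from the annotated start (RefSeq, GRCh38) are shown for ribosomal protein genes among the lowest shares or the most abundant of the 200, and for TPT1, with capitals where the first base is C and the next 4 are each C or T.
RPS3, chr11:75399518-75399537, plus strand: CCTTTcctttcagcggagcg
RPL36, chr19:5690295-5690314, plus strand: CCTTCcgccacggccgtctc
RPL28, chr19:55385932-55385951, plus strand: CTCTTtccgtctcaggtcgc
RPS24, chr10:78033863-78033882, plus strand: CTCTTttcctccttggctgt
RPL32, chr3:12841546-12841565, minus strand: agcccttgcgcgccaccgtc
TPT1, chr13:45341164-45341183, minus strand: CTTTTccgcccgctcccccc
RPL26, chr17:8383174-8383193, minus strand: CTCTTcccttttgcggccat
RPS6, chr9:19380217-19380236, minus strand: CTCTTttccgtggcgcctcg
RPS23, chr5:82278335-82278354, minus strand: CTCTTtcgctcaggcccgtg
RPL13A, chr19:49487608-49487627, plus strand: CTTTTccaagcggctgccga
Such a start was annotated for 23 of the 35 ribosomal protein genes of the 200 that were matched to a start, for 11 of 18 matched ribosomal protein genes outside the 200, and for 4.04% of all 27305 genes with an annotated start. Among the other members it was found in 9.42% of 138 genes, close to the 10.3% of the abundant genes outside the 200. Only the letters on the sense strand at one annotated start per gene were read, and a missing motif says nothing about other starts of the gene.

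The T > C share in DMSO ranged from 0.903% to 3.46% over the 200 genes, with a median of 2.70%. The other 1270 abundant genes had a median of 7.55%. The limit fell among close values. ATP5MG, TMEM230 and ARF3 lay just inside with 3.45%, 3.46% and 3.46%, and GTF3A, PFAS and UQCRH just outside with 3.46%, 3.46% and 3.47%. Over the 3 DMSO libraries, the share of TMEM230 ran from 3.12% to 4.17% and that of UQCRH from 3.09% to 4.24%, so that the genes at the limit were not distinguished by the libraries. The median coefficient of variation of the share over the DMSO libraries was 12.8% for the 200 genes. When the same rule was applied to only 2 DMSO libraries, between 182 and 185 of the genes chosen were shared with the 200. In the library left out, the median share of the chosen genes was 2.60% to 2.73%, and all 200 chosen genes lay below the median of the remaining abundant genes in each of the 3 cases.

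**Figure D1:**
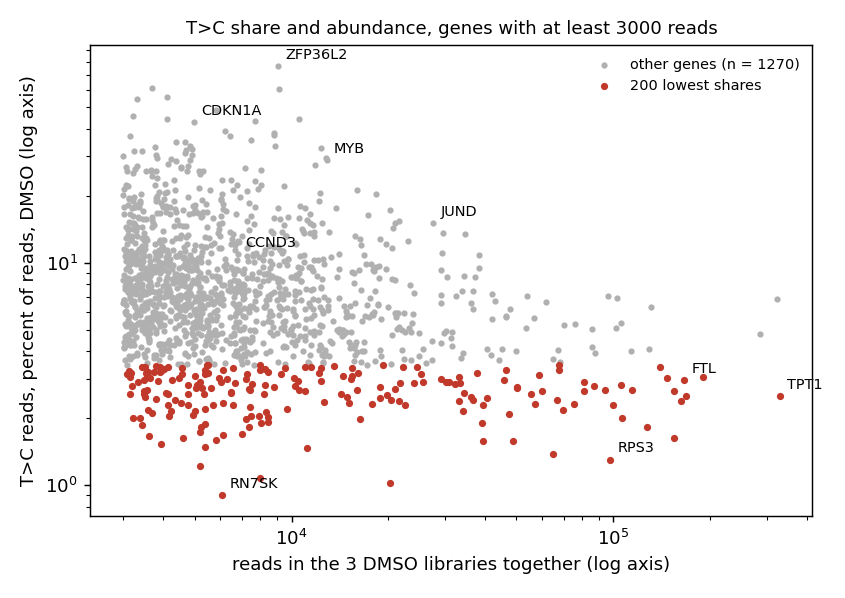
T > C share in DMSO (percent of reads, log axis) against the reads of each gene in the 3 DMSO libraries together (log axis), with 1 point per gene. The 200 genes lie below the limit at 3.46% over the whole range of abundance, from the minimum of 3000 reads to TPT1 with 328463 reads, and the short-lived regulators ZFP36L2 and CDKN1A lie at 76.5% and 42.8%.

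The machinery of translation made up the largest group. Of the 65 genes for cytosolic ribosomal proteins that passed the minimum of reads, 42 were among the 200, against 13.6% of all abundant genes. Their median share was 2.65%, and the lowest was that of RPS3, a protein of the small subunit. A read covered a median of 14.9 T positions in these 42 genes, against 31.0 in the other abundant genes. A conversion thus had fewer places to be seen, and how much this lowered their share was not tested. RPS3 (Entrez 6188) had a share of 1.46%, 1.201% and 1.27% in replicates 1, 2 and 3 of the DMSO group. RPL36 and RPL28 followed with 1.38% and 1.58%, and then RPS24 and RPL32 with 1.63% and 1.82%. RPS24 had 1.60%, 1.60% and 1.70% in the 3 libraries, and RPL32 had 1.84%, 1.80% and 1.83%. The 3 libraries gave nearly the same share for each of the last pair. Of 34 genes in the list of translation factors, 5 were also members: EEF1G, EIF3F and EIF3H and, kept in the same list, TPT1 and RACK1. TPT1, which encodes the translationally controlled tumour protein, had the most reads of the 200. TPT1 had 2.48%, 2.64% and 2.44%. RACK1, a scaffold protein on the small ribosomal subunit, and EEF1G, a subunit of the elongation factor 1 complex, had 2.30% and 2.15%. Only 2 of 35 mitochondrial ribosomal protein genes were members, GADD45GIP1 and AURKAIP1, with 3.39% and 3.41%, and the median of that list was 7.05%.

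Energy metabolism was the next group. It held 22 of 63 genes for subunits of oxidative phosphorylation, with a median member share of 2.85%. NDUFA11, an accessory subunit of complex I, had the lowest share of all protein-coding members, with 0.847%, 1.02% and 1.48% in the DMSO libraries. The most abundant genes of this group were NDUFB9 of complex I, COX4I1 of cytochrome c oxidase and ATP5MC2 of the ATP synthase, with 2.97%, 2.38% and 2.92%. Of 14 genes for glycolysis and the pentose phosphate pathway, 7 were members: GPI, PFKL, ALDOA, PGK1, PKM, TALDO1 and TKT. PKM, the pyruvate kinase, and ALDOA, the aldolase, had 2.57% and 2.86%. The citric acid cycle contributed 1 of 9 genes, IDH2. A read covered a median of 17.6 T positions in the 22 oxidative phosphorylation members and 24.2 in the 7 glycolysis and pentose phosphate members.

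Lysosomal and myeloid products formed a further group. Of 17 lysosomal genes, 10 were members, including PSAP, the precursor of the saposins, GRN, which encodes progranulin, CTSA, the protective protein cathepsin A, and the tetraspanin CD63. PSAP had 1.498%, 1.38% and 1.51% in the DMSO libraries. Of 17 genes in a list named for myeloid granule proteins and lysozyme, 9 were members. Not all of them encode granule proteins, as the list also holds S100A4, S100A6, LGALS1, TYROBP and CD74. TYROBP, an adaptor of myeloid receptors, had 1.66%, 1.33% and 1.76%, whereas LYZ, which encodes lysozyme, lay near the limit with 3.66%, 3.35% and 3.27%. RNASE2, a granule ribonuclease, had 2.66%. Of 11 abundant myeloid surface receptor genes, with a median share of 8.09%, 3 were members: CSF3R, CLEC11A (a secreted growth factor kept in the same list) and CD4, with 2.05%, 2.90% and 3.15%.

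Smaller numbers came from the secretory pathway with 6 of 31 genes (among them SSR4, TMEM258 and P4HB), from the chaperones with 5 of 31 (HSPB1, CDC37, TRAP1, PFDN5 and FKBP1A), from vesicle transport with 4 of 26 (among them ARHGDIB and COPE), from the proteasome with 3 of 27 (PSMB7, PSMD4 and PSMD8), from the antioxidant genes with 3 of 20 (PRDX2, GSTK1 and FTL) and from the cytoskeleton with 3 of 38 (CAPG, MYL6 and FLNA). No member came from the 23 genes for histones and chromatin architecture, the 24 genes for DNA replication and the cell cycle, the 3 MHC class I genes or the 10 short-lived regulators that passed the minimum. The median share of the short-lived regulators was 30.4%. ZFP36L2, an RNA-binding protein that promotes mRNA decay, had 76.9%, 75.9% and 76.5%, and the transcription factor MYB had 29.9%, 27.8% and 28.8%. The cyclin gene CCND3 had 11.4%, 10.4% and 11.1%, which was the lowest of the 5 regulators shown. In all, 126 of the 200 genes stood in at least 1 list and 74 in none.

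Of the 200, 197 were protein-coding. RN7SK (Entrez 125050), the small nuclear RNA that holds the elongation factor P-TEFb in an inactive complex, had the lowest share of all, with 0.731%, 0.701% and 1.32% in DMSO. The entry named for the microRNA gene MIR6805 came second with 1.02%. It lies in the RPL28 gene at chr19:55388181-55388242 and overlaps the annotated 3′ UTR of RPL28 at chr19:55388217-55392083, and its reads covered 0.0160 T positions of the entry per read, so that its reads and those of RPL28 cannot be told apart. RPL13AP5 is a pseudogene of RPL13A, and 76.5% of its reads were multimapped, as were 47.4% of those of RPL13A. The values of this pair are therefore uncertain, as are those of RPL3, RPL22, RPS2 and EIF3F, in which 95.2%, 73.0%, 70.5% and 62.8% of the reads were multimapped. In total, 5 members had over 50% multimapped reads and 5 overlapped another gene. SNRPN and SNURF were counted as 2 genes although they share a 3′ end.

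The 200 genes shared features that were not part of the rule. They are not independent of it, since a read that covers few T positions has few places for a conversion. Length, base content and T-rich motifs such as ATTTA are all tied to this number, and no comparison was made at equal T content. Their 3′ UTR entry with the most reads had a median length of 259 bases (quartiles 101 and 653), compared with 912.5 bases (364 and 2010) in the other abundant genes. Its T content was 25.5% against 31.1%, and its G and C content 51.0% against 41.3% (medians). The AU-rich pentamer ATTTA, known from unstable mRNAs, was found in 25.5% of these 3′ UTRs and in 67.4% of those of the other genes. In 3′ UTRs of at most 300 bases, it was found in 6 of 107 members (5.61%) and in 65 of 259 other genes (25.1%). Per 1000 bases, ATTTA occurred 1.10 times in the members and 2.18 times in the others. The longer TATTTAT, which contains ATTTA, was present in 4% and 23.5%, and TGTANATA, the sequence bound by Pumilio proteins, in 6.5% and 23.4%. All motifs were read on the sense strand only, and a match is not a measured binding site. Chromosome 19, which is rich in genes and in G and C, carried 46 of the 200 genes (23%) and 7.48% of the others.

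The number of T positions seen by the reads differed as well. The 3′ UTR was covered at a median of 21.7 T positions per read in the 200 genes and at 31.0 in the others. Fewer than 20 T positions per read were found for 86 of the 200 genes (43%) and for 8.43% of the others. Of 25 abundant genes with fewer than 10 T positions per read, 16 were members, and of 657 genes with 30 to 40, 32 were members. Across the 200 genes, the T positions per read and the share had a Spearman correlation of 0.36, and across all 1470 abundant genes it was 0.35. The points share their libraries, and both measures come from the same reads.

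**Figure D2:**
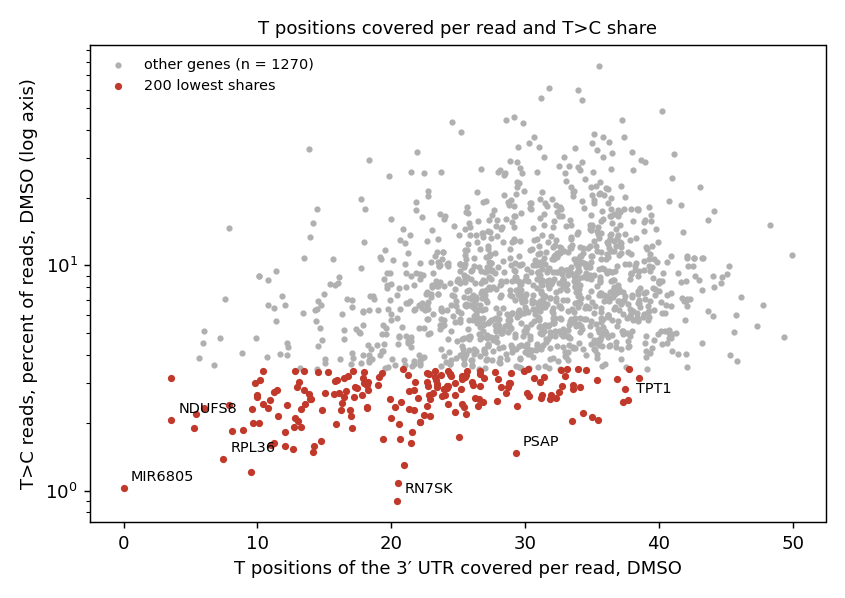
T > C share in DMSO (percent of reads, log axis) against the T positions of the 3′ UTR covered per read, with 1 point per gene. The 200 genes have a median of 21.7 T positions per read and the other 1270 genes one of 31.0, and PSAP and TPT1 lie among the members with many T positions.

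With the genes ranked by conversions per T position covered in place of the T > C share, 158 of the 200 remained. The 42 genes that left had a median of 17.2 T positions per read, compared with 22.8 for the genes that remained. They included ribosomal protein genes such as RPL26, RPL3, RPL13A and RPL14, subunits of complex I such as NDUFS8 and NDUFS6, and LYZ.

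The background of T > C reads without 4sU could not be measured, as both groups were labelled. Since such reads are included in the share, the share of a gene is an upper limit for its own background. RN7SK set the lowest limit in DMSO, with 55 T > C reads among 6088 reads and 0.0442% conversions per T position. The members had a median of 0.187% conversions per T position, and the other abundant genes one of 0.492%. Conversions per T > C read differed too, with a median of 1.48 in the members and 2.00 in the others. Values below 1 occurred in 32 members and 24 other genes, so that not every T > C read had a conversion counted in the entry, and the cause was not tested. RPL36, whose entry is 46 bases long, had 0.799 conversions per T > C read, whereas TPT1 had 2.11 and TALDO1, the transaldolase, 2.28.

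Per library, the 200 genes pooled had 1.37, 1.37 and 1.36 conversions per T > C read in DMSO and 1.56, 1.52 and 1.53 in C646. The C646 libraries all lay above the DMSO libraries. These values are a description, since the DMSO T > C reads in the denominator are among the values that chose the genes. The median over the 200 genes went the other way, from 1.45 ± 0.0430 (SD, n = 3) to 1.23 ± 0.0240 (SD, n = 3), again without overlap. In the pooled value, HSPB1 and FTL carried 37.9% of the members' T > C reads in C646 and 4.27% in DMSO. The other abundant genes moved in the direction of the median, from 2.01 ± 0.0465 to 1.82 ± 0.0199 (SD, n = 3).

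C646 was next compared with DMSO. The T > C share of the 200 genes pooled was 2.58%, 2.60% and 2.57% in DMSO and 2.65%, 2.60% and 2.54% in C646, and the groups overlapped. The median share over the 200 genes was 2.64%, 2.72% and 2.65% in DMSO and 1.47%, 1.48% and 1.56% in C646. Without HSPB1 and FTL, the pooled share went from 2.57% ± 0.0179 (SD, n = 3) to 1.72% ± 0.0139 (SD, n = 3). The share summed over the libraries of each group was lower in C646 for 186 of the 200 genes (93%) and for 91.4% of the other abundant genes. The median ratio of the C646 share to the DMSO share was 0.587 for the members and 0.578 for the others. The DMSO values are those that chose the genes, and these ratios are given without a test. Of the 200 genes, 119 were also among the 200 lowest shares in C646.

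**Figure D3:**
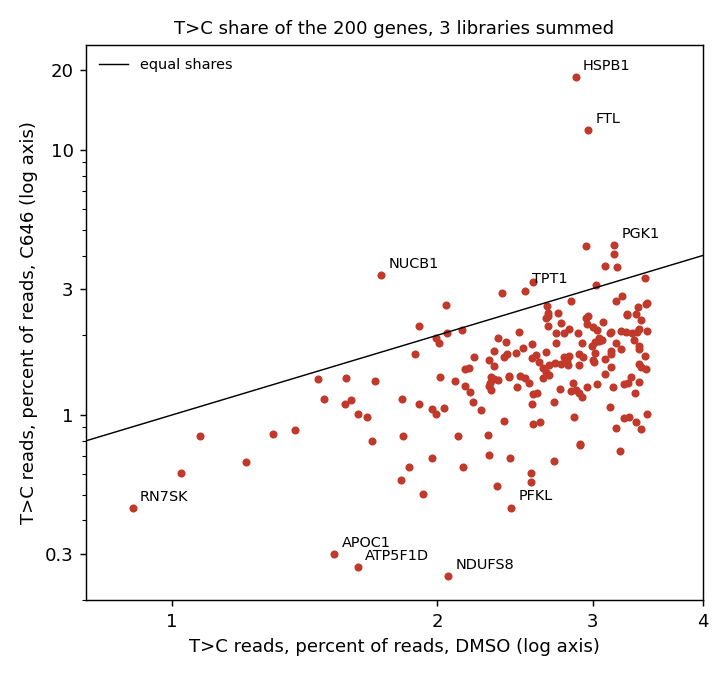
T > C share of the 200 genes in C646 against DMSO (percent of reads, 3 libraries of each group summed, log axes), with 1 point per gene and a line where both shares are equal. In 186 genes the point lies below the line, and HSPB1 with 18.9% and FTL with 11.9% lie far above it.

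To compare newly made RNA, T > C reads were tested with edgeR's quasi-likelihood test against the total reads of the same libraries. Any read with a conversion counts here, a wider definition of new RNA than the one behind the study's own calls. A gene was called where the adjusted p did not exceed 0.01 and the log2 fold change reached 1 in either direction. Of the 200 genes, 99 were called lower in C646 and 2 higher. Among all 7722 genes tested, 33% were called lower and 2.97% higher, and among the other abundant genes 43% and 2.28%. The median log2 fold change was −1.12 in the members, −0.89 in the other abundant genes and −0.83 over all genes tested. Without the limit on the fold change, 122 members were lower and 3 higher, against 38% and 3.83% of all genes tested and 61.2% and 4.02% of the other abundant genes. In 152 members all C646 libraries lay below all DMSO libraries and in 7 above them, against 55.8% and 6.46% of all genes tested and 73.1% and 4.96% of the other abundant genes. These fold changes share the DMSO libraries that chose the genes. With the genes chosen in 1 DMSO library and compared with the other 2, between 79 and 87 of them were called lower and the median was −1.22 to −1.10, against 24.9% to 26.2% and −0.84 to −0.81 for all genes tested in the same fits. These calls depended on the scaling. TMM factors computed on the T > C reads themselves moved the median of all genes tested from −0.83 to 0.0050. They left a median of −0.29 in the members, with 16 genes called lower and 10 higher, against 7.72% and 9.05% of all genes tested under this scaling.

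Total mRNA changed less. In all reads, 4 of the 200 genes were called lower and 1 higher, against 1.88% and 5.89% of the 10851 genes tested and 1.26% and 1.57% of the other abundant genes. The median log2 fold change was −0.35 in the members, −0.14 in the other abundant genes and −0.0030 over all genes tested. With the limit on the adjusted p alone, 38 members were lower and 8 higher, against 6.28% and 9.82% of all genes tested and 11.8% and 5.91% of the other abundant genes. The 2 groups of libraries did not overlap in 110 members that were lower and 21 that were higher, against 23.1% and 24.5% of all genes tested and 39.6% and 18.7% of the other abundant genes. The number called lower rested on single libraries. It was 0 without C646 replicate 3, 2 without DMSO replicate 2, 8 without DMSO replicate 3 and 13 without C646 replicate 1, where 1.26%, 1.08%, 1.77% and 2.89% of all genes tested were called lower. The number called higher was 4 without DMSO replicate 3 and 2 without C646 replicate 1, against 6.02% and 6.56% of all genes tested. Scaled by all filtered reads of a library, a setting chosen after seeing the data which moved the median of all genes by 0.20, 0 members were called lower and 5 higher, against 0.829% and 9.34% of all genes tested.

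A further measure, the odds of T > C against other reads within a gene, needs no scaling between libraries. By edgeR's quasi-likelihood test, the odds were lower in 59 of the 200 genes and higher in 2, against 38.3% and 0.79% of the 7722 genes tested and 41.3% and 1.34% of the other abundant genes. With the limit on the adjusted p alone, 124 were lower and 5 higher, against 44.8% and 1.14% of all genes tested and 64.7% and 2.68% of the other abundant genes. The shares did not overlap in 145 members that were lower and 6 that were higher, against 64.5% and 2.24% of all genes tested and 75.3% and 3.7% of the other abundant genes. The median log2 change in odds was −0.78 in the members, −0.87 in the other abundant genes and −1.004 over all genes tested. The odds in DMSO express the same quantity as the share that chose the genes, so that these counts are a description of the chosen genes. With the genes chosen in 1 DMSO library and compared with the other 2, a setting chosen after seeing the data, between 51 and 61 were called lower and 2 to 3 higher, with medians of −0.83 to −0.81, against 26.3% to 28.1% lower, 0.576% to 0.623% higher and medians of −1.04 to −1.01 for all genes tested in the same fits. Of the 99 genes called lower in T > C reads, 52 were called lower in the odds as well.

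**Figure D4:**
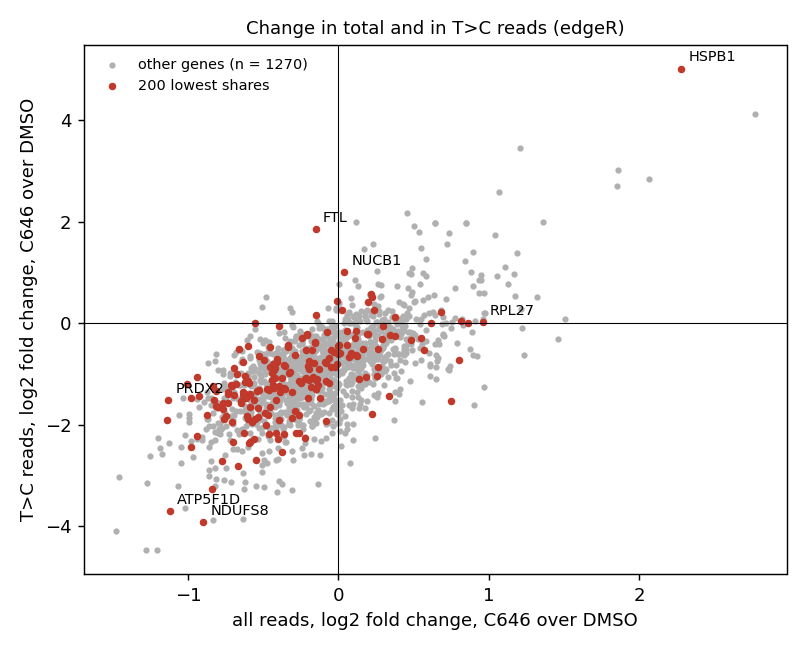
Log2 fold change of T > C reads against that of all reads, C646 over DMSO, in the edgeR fits, with 1 point per gene. The 200 genes have medians of −1.12 in T > C reads and −0.35 in all reads, and HSPB1 lies at 5.01 and 2.28.

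HSPB1 (Entrez 3315, 3′ UTR at chr7:76304174-76304297) encodes the small heat shock protein HSP27. Its T > C share was 2.95%, 2.90% and 2.75% in DMSO and 21.1%, 18.9% and 17.4% in C646. Its T > C reads stood at 38.8, 39.4 and 41.1 CPM (counts relative to the TMM-scaled total of reads on 3′ UTRs, with TMM a scaling between libraries) in DMSO and at 1288, 1339 and 1230 CPM in C646. The 2 groups were far apart, and the log2 fold change was 5.01 (SE 0.13, edgeR adjusted p = 9.13e-24). Total HSPB1 reads rose as well, from 1315, 1359 and 1495 CPM to 6098, 7094 and 7051 CPM, a log2 fold change of 2.28 (SE 0.13, edgeR adjusted p = 3.08e-08). HSPB1 was the one member called higher in all reads. It stood at rank 121 by its share in DMSO and at rank 1432 of the 1470 abundant genes in C646.

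FTL (Entrez 2512, 3′ UTR at chr19:48966736-48966879) encodes the ferritin light chain, which stores iron. Its share was 3.19%, 2.83% and 2.84% in DMSO and 11.4%, 11.7% and 12.5% in C646, without overlap. T > C reads rose by a log2 fold change of 1.85 (SE 0.13, edgeR adjusted p = 7.67e-13). Total FTL reads stood at 6565, 7437 and 6803 CPM in DMSO and at 7362, 6386 and 4989 CPM in C646. These groups overlapped, with a log2 fold change of −0.15 (SE 0.15, edgeR adjusted p = 0.462).

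NUCB1, which encodes a calcium-binding protein of the Golgi, was picked out after its values were seen. Its share was 1.65%, 1.95% and 1.52% in DMSO and 3.24%, 3.45% and 3.39% in C646. The log2 fold change of its T > C reads, 0.9987 (SE 0.31, edgeR adjusted p = 0.00835), fell just short of the limit of 1. TPT1 differed by little, with 2.93%, 2.90% and 2.99% in C646 against at most 2.64% in DMSO, and a log2 change in odds of 0.23.

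**Figure D5:**
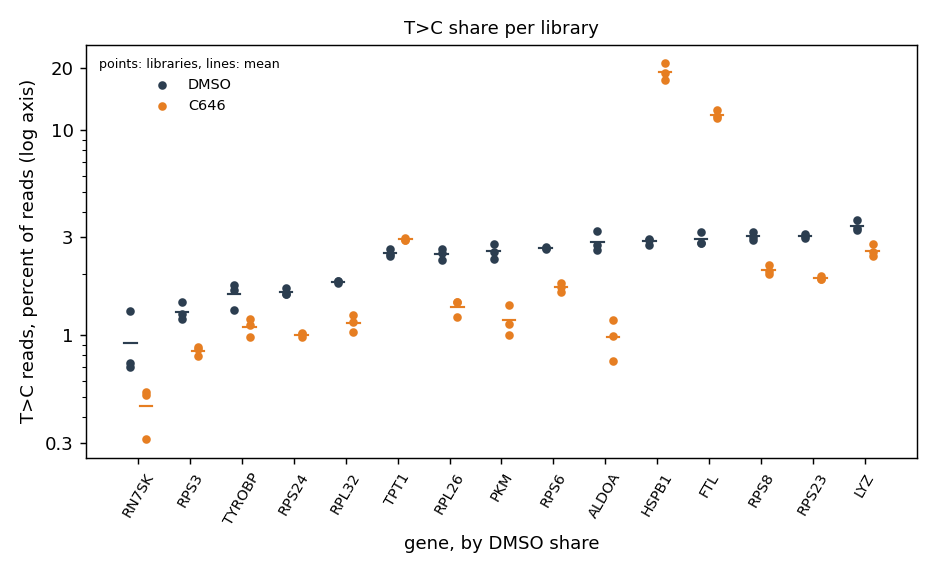
T > C share (percent of reads, log axis) of 15 of the 200 genes in each library, with points for the 3 DMSO and the 3 C646 libraries and lines for their means. HSPB1, FTL and TPT1 are higher in every C646 library than in every DMSO library, and the other 12 genes shown are lower, whereas over all 200 genes the shares did not overlap in 145 that were lower and 6 that were higher (64.5% and 2.24% of all genes tested).

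The largest falls in T > C reads were found in genes with few such reads. NDUFS8, a core subunit of complex I, had 30, 51 and 21 T > C reads in DMSO and 4, 0 and 3 in C646. Its 3′ UTR entry is 54 bases long with 4 T, and a read covered 3.56 T positions, which leaves few places for a conversion. The count of 0 was among 918 reads, which allows a share of up to 0.327%. The ratio of T > C reads in C646 to DMSO, per read on 3′ UTRs, was 0.0634 (95% exact counting interval 0.0249 to 0.135), and the log2 fold change was −3.92 (SE 0.66, edgeR adjusted p = 1.33e-05). ATP5F1D, the delta subunit of the ATP synthase, had 15, 30 and 30 T > C reads in DMSO and 2 in each C646 library, with a ratio of 0.0739 (0.0263 to 0.168). PFKL, the liver-type phosphofructokinase, and CTSA had ratios of 0.1004 (0.0466 to 0.193) and 0.135 (0.0691 to 0.243). These intervals cover counting error only, as PCR copies were not removed with molecular identifiers. The next in order was NME4, a nucleoside diphosphate kinase of mitochondria, with a log2 fold change of −2.71 (SE 0.47, edgeR adjusted p = 1.87e-05). These 5 genes were named for the size of their change and for groups that do not overlap.

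The abundant metabolic genes had smaller falls with more reads behind them. The share of ALDOA was 3.21%, 2.60% and 2.75% in DMSO and 0.996%, 1.19% and 0.749% in C646. Its T > C reads fell by 2.00 on the log2 scale (SE 0.23, edgeR adjusted p = 3.28e-08). PKM had 2.80%, 2.54% and 2.37% in DMSO and 1.41%, 1.14% and 1.00% in C646, and its T > C reads fell by 1.82 (SE 0.22, edgeR adjusted p = 7.36e-08). Of the 7 members from glycolysis and the pentose phosphate pathway, 4 were called lower in T > C reads and none higher, against 33% of all genes tested and 43% of the other abundant genes called lower. The median log2 fold change was −1.05, which was −0.63 without DMSO replicate 2. Under TMM factors from T > C reads, the median was −0.23, with 2 called lower and 2 higher, against 7.72% and 9.05% of all genes tested. TALDO1 was not called, with a share of 3.13%, 2.98% and 3.17% in DMSO and 3.06%, 3.53% and 4.13% in C646. Of the 22 members from oxidative phosphorylation, 12 were called lower and none higher, against 33% of all genes tested, 43% of the other abundant genes and 49.5% of the 200 called lower. Their median log2 fold change was −1.197. TMM on the T > C reads brought this median to −0.37 and the number called lower to 5, against the same 7.72%. COX4I1 fell by 1.17 (SE 0.19, edgeR adjusted p = 9.47e-06), while ATP5MC2 and NDUFB9, at −0.79 and −0.99, did not reach the limit.

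Among the 42 members for cytosolic ribosomal proteins, 19 were called lower in T > C reads and none higher, against 43% of the other abundant genes and 33% of all genes tested called lower. Their median log2 fold change was −0.89, close to that of the other abundant genes. Under TMM factors from T > C reads, that median became −0.06, with 0 of the 42 called lower and 1 higher, against 7.72% and 9.05% of all genes tested under this scaling. In the odds, 2 of the 42 were called lower, against 38.3% of all genes tested, 41.3% of the other abundant genes and 29.5% of the 200. Their median log2 change in odds was −0.71, against −0.78 in the 200, and the limit for a call was 1. The DMSO odds chose these genes, so these values are a description. The number called lower in the odds was 4 without C646 replicate 1 or DMSO replicate 3, and 5 without C646 replicate 3. In these fits, 33%, 28.1% and 36% of all genes tested were called lower. RPS23 had shares of 2.98%, 3.13% and 3.05% in DMSO and 1.89%, 1.96% and 1.88% in C646, and its T > C reads fell by 1.12 (SE 0.13, edgeR adjusted p = 4.21e-08). RPL26 fell by 1.08 (SE 0.15, edgeR adjusted p = 5.31e-07). RPS6 was not called, with a log2 fold change of −0.25 (SE 0.14, edgeR adjusted p = 0.143), although its share was 2.63%, 2.69% and 2.67% in DMSO and 1.63%, 1.79% and 1.73% in C646. The total reads of RPS6 stood at a log2 fold change of 0.37 (SE 0.14, edgeR adjusted p = 0.057).

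In total reads, with the limit on the adjusted p alone, 8 of the 42 ribosomal protein genes were lower and 4 higher, against 6.28% and 9.82% of all genes tested and 38 and 8 of the 200. The 4 were RPS3, RPL27, RPS29 and RPL30, of which all but RPS3 were named after their values were seen. RPS29 had 3198, 2627 and 4316 CPM in DMSO and 5156, 6455 and 6798 CPM in C646, a log2 fold change of 0.86 (SE 0.17, edgeR adjusted p = 0.00234). RPL27 had 702, 764 and 1022 CPM in DMSO and 1362, 1717 and 1761 CPM in C646, a log2 fold change of 0.96 (SE 0.16, edgeR adjusted p = 0.00069). The T > C reads of RPS29 and RPL27 had log2 fold changes of 0.008 and 0.01, and neither passed the test. RPL28 had 2150, 1370 and 1225 CPM in DMSO and 900, 877 and 589 CPM in C646, and was called lower with a log2 fold change of −1.005 (SE 0.21, edgeR adjusted p = 0.00254). This value lies at the limit, and the call was lost with the replicate block, when scaled by all filtered reads, and without DMSO replicate 1, C646 replicate 2 or C646 replicate 3.

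The other members called lower in all reads were the MIR6805 entry inside RPL28, ATP5F1D and PRDX2. PRDX2 encodes a peroxiredoxin, which reduces hydrogen peroxide. It had 218, 258 and 195 CPM in DMSO and 135, 113 and 58.9 CPM in C646, a log2 fold change of −1.13 (SE 0.23, edgeR adjusted p = 0.00224). ATP5F1D had 176, 240 and 165 CPM in DMSO and 108, 89.3 and 69.2 CPM in C646, a log2 fold change of −1.12 (SE 0.18, edgeR adjusted p = 0.000535). These 3 were named among the called changes without overlap, and C646 replicate 3 was the lowest library in each. Without that library, the log2 fold changes were −0.85 for PRDX2, −0.97 for ATP5F1D and −0.92 for the MIR6805 entry, and none was called. Without DMSO replicate 2, PRDX2 (−1.02) and ATP5F1D (−0.94) were not called either, and the MIR6805 entry (−0.67) was not called without DMSO replicate 1. The call of the MIR6805 entry was also lost with DESeq2's Wald test, and all 3 calls were lost when scaled by all filtered reads.

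Of the 10 lysosomal members, 4 were called lower in T > C reads and none higher, again beside 33% of all genes tested and 43% of the other abundant genes called lower, with a median log2 fold change of −0.86. Under TMM factors from T > C reads, 1 was called lower and 1 higher, against 7.72% and 9.05% of all genes tested, and the median was −0.03. CD63 fell by 1.31 (SE 0.24, edgeR adjusted p = 3.73e-05), and PSAP did not pass with −0.47 (SE 0.31, edgeR adjusted p = 0.19). Of the 9 members in the list named for myeloid granule proteins and lysozyme, 5 were called lower, beside the same 33% and 43%. Their median was −1.05. The number was 3 without DMSO replicate 2 or without C646 replicate 3, 2 when scaled by all filtered reads, and 1 under TMM factors from T > C reads, with a median of −0.21. The shares of all genes tested that were called lower in these fits were 25.3%, 31.8%, 24.6% and 7.72%. TYROBP fell by 1.199 (SE 0.20, edgeR adjusted p = 1.06e-05), whereas LYZ stood at −0.29 (SE 0.15, edgeR adjusted p = 0.0955) with shares of 2.43%, 2.54% and 2.80% in C646. CLEC11A had shares of 0.974%, 0.746% and 0.651% in C646 against 2.44% to 3.41% in DMSO, and fell by 2.28 in T > C reads (SE 0.20, edgeR adjusted p = 1.85e-10). CSF3R, the receptor of granulocyte colony-stimulating factor, had overlapping shares of 1.69%, 2.46% and 2.10% in DMSO and 3.23%, 1.54% and 2.89% in C646.

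APOC1, which encodes an apolipoprotein, had opposite signs in the 2 measures. Its total reads stood at 127, 194 and 179 CPM in DMSO and at 211, 286 and 342 CPM in C646, a log2 fold change of 0.75 (SE 0.19, edgeR adjusted p = 0.00787). Its share was 2.15%, 1.65% and 0.830% in DMSO and 0.188%, 0.386% and 0.290% in C646, with 60 T > C reads in DMSO and 22 in C646. The log2 change in odds was −2.36, given as a description since the DMSO share chose the gene, and T > C reads did not pass with −1.54 (SE 0.56, edgeR adjusted p = 0.0209). RN7SK had shares of 0.312%, 0.529% and 0.514% in C646, all below its DMSO values, and was called in none of the 3 measures.

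Among the smaller lists, ARF3, a small GTPase of vesicle transport, fell by 2.36 in T > C reads (SE 0.38, edgeR adjusted p = 6.94e-06) and FLNA, an actin crosslinker, by 2.54 (SE 0.51, edgeR adjusted p = 0.000145). P4HB, the protein disulfide isomerase, fell by 1.17 (SE 0.19, edgeR adjusted p = 1.16e-05), and FKBP1A, a prolyl isomerase, by 1.65 (SE 0.21, edgeR adjusted p = 1.48e-07). The calls of FLNA and P4HB were lost under TMM factors from T > C reads. CDC37, a co-chaperone of HSP90, lay on the other side with a log2 fold change of 0.52 (SE 0.22, edgeR adjusted p = 0.0447), which did not pass. Of the 5 chaperone members, HSPB1 was the one called higher and FKBP1A the one called lower, against 2.97% and 33% of all genes tested, whereas TMM factors from T > C reads gave 2 higher and 0 lower, against 9.05% and 7.72%. The median of this list, −0.54, turned to 0.29 with TMM on the T > C reads, as did those of the translation factors (−0.63 to 0.20) and the proteasome subunits (−0.63 to 0.20).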

How the data were processed

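SLAM-seq libraries of MOLM-13 cells were analysed for DMSO and C646, with 3 libraries each, grouped by the sample labels. The authors aligned the reads with SLAM-Dunk 0.4.1, using GRCh38. The deposited tables (1 per library, 58136 3′ UTR entries listed by Entrez identifier) hold raw counts of reads, T > C reads, conversions and multimapped reads. They also hold a signal, the coverage of T positions, which the authors deposited without normalization. A deposited fraction of converted T positions, computed by the authors' software, was not needed, as the shares were taken from the counts. T > C reads hold 1 or more conversions, judged from the values, which is a wider definition of new RNA than in the study's own calls, made on reads with at least 2. C646 replicate 3 lists the number of T bases as 0. The deposited CPM column, scaled by the authors' software, served only to recover the filtered reads of each library. The deposited lengths and T contents served for coordinates. T contents of the leading entries matched the genome in 100% of cases.

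Counts were summed per gene. Symbols were found for 25310 of 25420 genes. Tests were made in edgeR 4.0.16 (R 4.3.3) over all genes kept by filterByExpr, with TMM library sizes from all reads and Benjamini-Hochberg adjustment. The model of the odds had a library factor. The fits were tested on simulated data. DESeq2 1.42.0 was an alternative. CPM values printed here use the TMM-scaled reads on 3′ UTRs. The SE was obtained by dividing the size of the log2 fold change by the root of F.

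Between libraries of one group, the chi-square over genes was 8.10 to 29.1 per degree of freedom in all reads and 3.45 to 9.68 in the members' T > C reads, where counting error alone gives about 1, and none was a copy. Depth, at least 7252597 reads per library, makes the counting error of pooled shares small, whereas the median member had 213 T > C reads over 3 DMSO libraries. Motifs were read in GRCh38 at the 3′ UTR entry with the most reads, and starts in RefSeq promoter sequences. Summaries were made with pandas 2.3.3 and scipy 1.17.1 in Python 3.11.15.

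The 200 genes and the gene lists were chosen with earlier results of these data known. Named genes are the 10 lowest shares, the 10 with most reads, 3 on each side of the limit, the 5 largest non-overlapping called changes per direction and measure, the 3 most abundant members of each list with at least 3 members, and 5 short-lived regulators. Other names are marked as chosen afterwards, or illustrate a count. The alternatives were other scalings, DESeq2, no filter, the replicate block, each library left out, and other rules of membership.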

Additional observations from a re-analysis of the deposited data

How the results depend on the processing

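The choice of genes depended most on the minimum of reads. With minimums of 1000 and 10000 reads, 119 and 90 of the 200 genes remained, while the other rules of membership kept between 158 and 198, of which leaving out each DMSO library in turn kept between 182 and 185. In all reads, leaving out each library in turn gave 0 to 13 members called lower and 1 to 4 called higher, against 4 and 1 with all libraries. Scaling by all filtered reads gave 0 and 5. In T > C reads, the number called lower was 16 and the number called higher 10 with TMM on the T > C reads, against 99 and 2. The other scalings and tests gave 71 to 103 lower and 2 or 3 higher, and leaving out each library gave 76 to 97 lower and 2 to 3 higher. In the odds, the number called lower was 53 to 64 over the libraries left out, with 2 to 3 higher. The pooled T > C share of the members differed by 0.0150 percentage points between C646 and DMSO, by −1.16 as a median over the genes and by −0.850 without HSPB1 and FTL, a setting chosen after seeing the data. Conversions per T > C read differed by 0.172 pooled and by −0.225 as a median over the genes. 

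Whether the replicate numbers pair the libraries cannot be decided here, as weak correlations over 3 libraries per group do not exclude pairing. For a DMSO and a C646 library of equal number, the deviations correlated at −0.0013, 0.14 and 0.23 in all reads. In T > C reads, the correlations for equal numbers were −0.0003, −0.01 and 0.0094. For unequal numbers, they ran from −0.22 to 0.15 in all reads and from −0.012 to 0.012 in T > C reads. In all reads and in T > C reads, not every library correlated best with its own number. With the replicate block, 4 members were called lower in all reads and 1 higher, 100 and 3 in T > C reads, and 59 and 2 in the odds. Of 580 values of named members that were called with the settings of the report or under the alternative, 495 kept their direction and their side of the limits, 57 lost the call, 28 gained one and none changed its sign. Of 1334 values called in neither, 40 changed their sign, 15 of them with TMM on the T > C reads.

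Without an unlabelled library, the background of T > C reads is known only as an upper limit. Genes with fewer than 20 T positions per read give a conversion fewer places to be seen. NDUFS8, ATP5F1D, PFKL and CTSA rested on 102, 75, 92 and 89 T > C reads in DMSO, and their order is within the counting intervals of their ratios. Outliers were not tested, as the groups hold 3 libraries.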
